A study of Mus musculus with 12 samples.

Results

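Collagen chains are hydroxylated, folded and exported before they become fibrils, and 10 genes that encode enzymes, a chaperone, carriers and a transcription factor of that route are described here in mouse chondrocytes. They were chosen by name as lysyl hydroxylases (Plod1, Plod2 and Plod3), prolyl 4-hydroxylase subunits (P4ha1 and P4ha2), the collagen chaperone Hsp47 (Serpinh1), parts of the COPII export machinery (Sec23a, Sec24d and Mia3) and the factor Creb3l2. All 10 are among the 17536 genes with deposited values, and 10 of 10 passed the filter on low values in every comparison.

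RNA was sequenced from superficial zone (SFZ) and deep zone (DZ) chondrocytes of 5-day-old C57BL/6 mice, whose background the methods of the study give as C57BL/6J. There were 12 libraries in all, 3 for each genotype in each zone. R3-cKO mice carried a Cre recombinase driven by Col2a1 together with floxed alleles of Runx3 (Col2a1-Cre; Runx3 fl/fl), and R3-Cntl mice carried the same floxed alleles (Runx3 fl/fl). The floxed alleles were thus common to all 4 groups, and Cre acts where Col2a1 has been active. SFZ cells came from a first enzymatic digestion of the joint ends and DZ cells from a longer digestion of what remained, so zone and digestion cannot be told apart. The methods of the study describe its cells as grown in monolayer on fibronectin-coated dishes, in every group alike. Both zones came from 3 mice of each genotype, so SFZ and DZ libraries share animals, and the labels do not state which libraries came from the same mouse.

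In the endoplasmic reticulum, prolyl 4-hydroxylases modify prolines of the collagen chain, which stabilises the triple helix, and lysyl hydroxylases modify lysines that later carry sugars and cross-links. Hsp47 binds the folded helix, and COPII coats with the help of TANGO1, the product of Mia3, carry procollagen towards the Golgi. Chondrocytes secrete large amounts of type II collagen, and loss of Sec23a, Sec24d, Creb3l2 or Mia3 disturbs cartilage or skeletal development in fish, mice or people.

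Values are FPKM, counts of fragments scaled for transcript length and library depth, which the authors also scaled between libraries. The unit was inferred from the values. Low values of single-transcript genes clustered in part on evenly spaced steps, with a periodicity of 0.47 to 0.606, where 1 would be exact. The best steps correspond to 27500000 to 29800000 fragments per library. The lowest member value was 26.99 FPKM, of Creb3l2 in R3-Cntl SFZ library 2. Taken at the lowest depth of the 12 libraries, it corresponds to 741 fragments per kilobase, a counting error of 3.7% per kilobase. The 12 libraries summed to between 392241 and 429213 FPKM. Differences below are on the log2(FPKM + 1) scale from limma, and a gene was called at a p under 0.05 after Benjamini-Hochberg adjustment over all genes tested.

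Runx3 itself differed by -0.04 on the log2 scale between genotypes in the SFZ (95% interval -1.08 to 0.99) and by 0.13 in the DZ (-0.55 to 0.81). As it was not called lower, R3-cKO here means the label of a library, although both intervals include lower levels. The study itself reports lower Prg4 in R3-cKO SFZ cells and lower Acan in R3-cKO DZ cells. A pair of libraries stood apart from the rest. R3-Cntl SFZ library 2 had a summed level of 10 skeletal muscle markers of 185 FPKM, against 5.52 to 20.4 FPKM elsewhere, and R3-cKO SFZ library 3 had the highest summed level of 10 fibrous connective tissue markers, 1157 FPKM.

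The members spanned a wide range of levels. Serpinh1 was the most abundant, with 1781 FPKM on average over 12 libraries, followed by Plod2 (179), P4ha1 (138), P4ha2 (92.9), Plod1 (79.7), Sec24d (77.7), Plod3 (73.8), Sec23a (68.0), Creb3l2 (50.6) and Mia3 (31.9 FPKM). They also differed in how much they varied. The standard deviation of log2(FPKM + 1) over the 12 libraries was 0.735 for Plod2, 0.618 for P4ha2 and 0.553 for Creb3l2, and 0.118 for Sec24d and 0.107 for Mia3. Among the 11765 genes tested, these were at percentiles 92.1, 88.5, 85.5, 8.4 and 5.52.

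**Figure D1:**
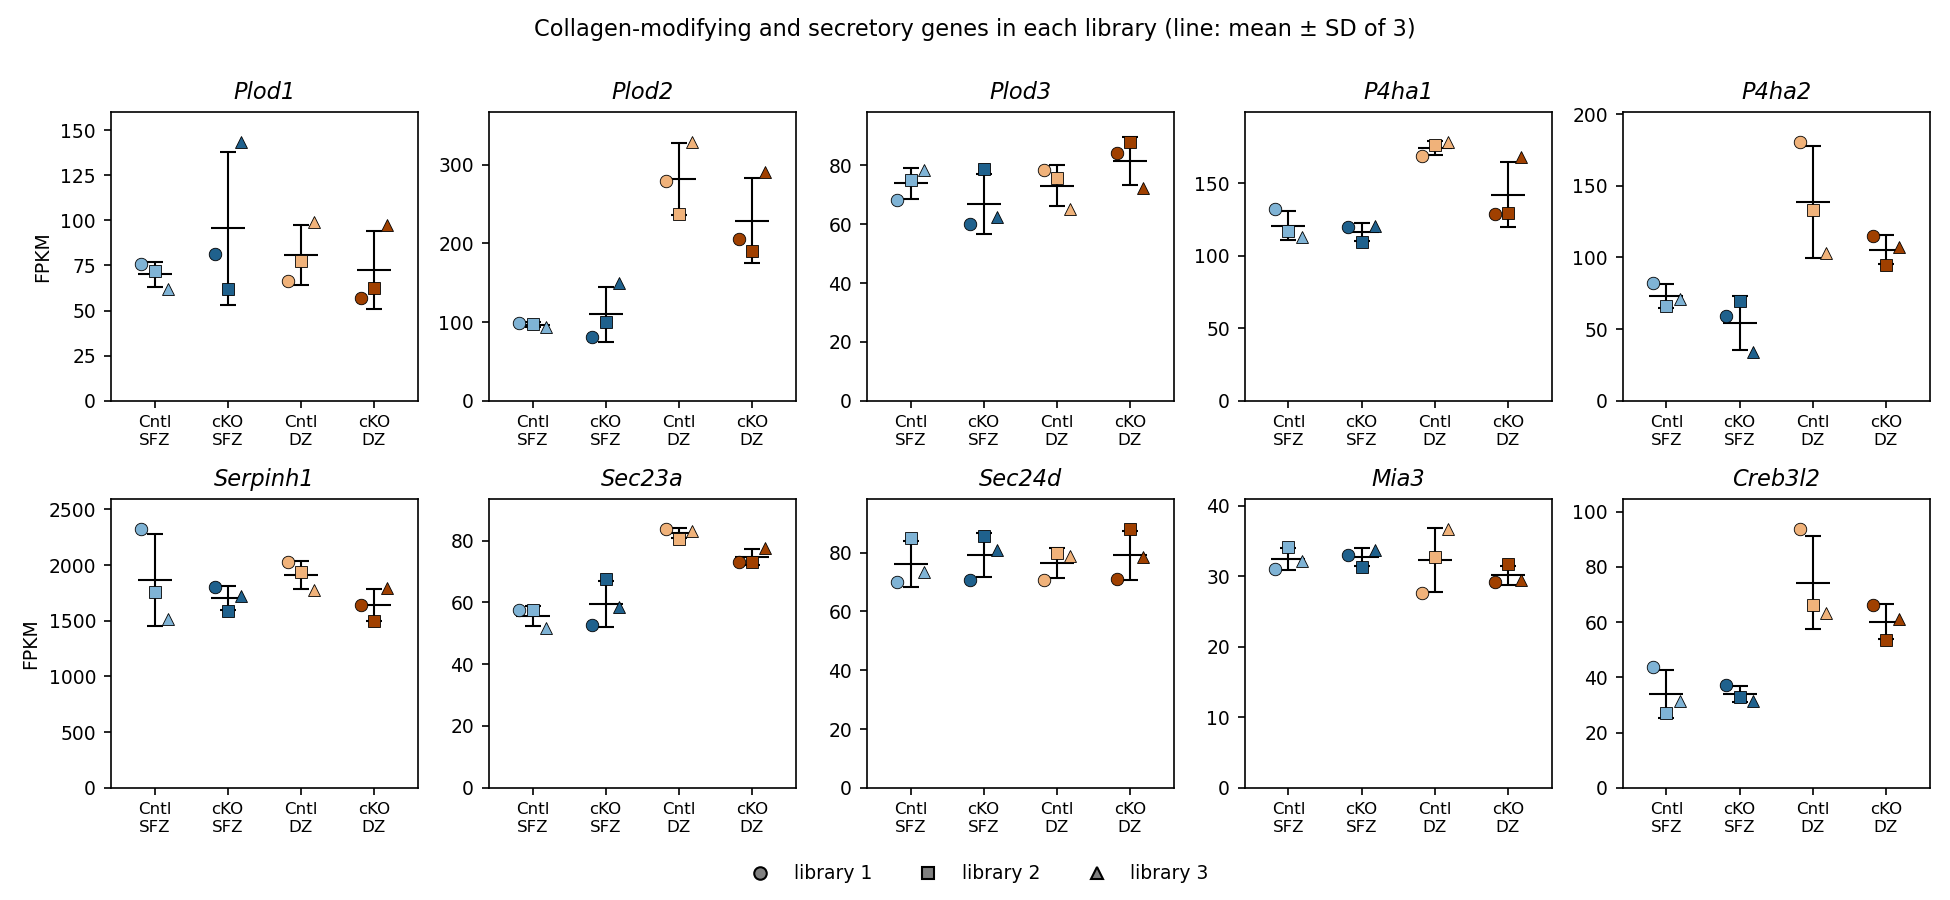
FPKM of each of the 10 members in each of the 12 libraries, by zone and genotype, with the mean and SD of each group of 3 (symbols mark library numbers). The DZ values of Plod2, P4ha2, Sec23a and Creb3l2 all lie above the SFZ values, whereas those of P4ha1, Plod1, Plod3, Serpinh1, Sec24d and Mia3 overlap.

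Zones were compared first, to ask which steps of the route differ between superficial and deep chondrocytes. Over both genotypes, 6 DZ against 6 SFZ libraries, 5 members were higher in the DZ and none was lower. Plod2, Creb3l2 and P4ha2 rose 2.46-fold, 1.94-fold and 1.92-fold, and Sec23a and P4ha1 rose 1.36-fold and 1.32-fold. Plod1, Plod3, Serpinh1, Sec24d and Mia3 were not called. At this threshold 506 of 11765 genes, or 4.30%, were called higher in the DZ, and 2219 were called lower. The RNA is bulk, so fewer cells of a type and less RNA per cell cannot be told apart.

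The median gene differed between DZ and SFZ by -0.14 on the log2 scale in the scaling of the deposited values. It was at 0.04 after quantile normalization and at -0.01 with median-of-ratios size factors. The same 5 members were called higher under both, where 10.5% and 8.41% of genes were called higher. The calls were 1238 higher and 864 lower after quantile normalization and 990 higher and 1122 lower with median-of-ratios size factors, so the excess of lower calls depended on the scaling. Relative to the median gene, the differences were 1.44 for Plod2, 1.10 for Creb3l2, 1.08 for P4ha2, 0.58 for Sec23a and 0.54 for P4ha1. The median member differed by 0.27, or by 0.41 relative to the median gene.

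Among the lysyl hydroxylases, Plod2 (Entrez gene 26432, mm9 chr9:92437061-92503266, forward strand) encodes the enzyme that hydroxylates lysines of the collagen telopeptides. Its SFZ levels in FPKM were 99.2, 97.5 and 93.3 for R3-Cntl mice (libraries 1, 2 and 3, an order kept throughout) and 80.4, 99.6 and 149 for R3-cKO mice. In DZ cells the levels were 279, 237 and 328 for R3-Cntl and 206, 191 and 290.4 for R3-cKO mice. All 6 DZ values lay above all 6 SFZ values, and the highest SFZ value was that of R3-cKO library 3. The zone means were 103 ± 23.6 and 255 ± 53.0 FPKM (SD, n = 6 each). The log2 difference was 1.30 (standard error 0.17, limma adjusted p = 0.000956), a 95% interval of 1.91 to 3.17 for the fold. The exact permutation test, two-sided, had p = 0.002165, the smallest that 924 arrangements of 6 against 6 libraries allow. The zone tests without a block, this one included, treat the libraries as independent, although the zones share mice, so their p values measure the spread between libraries.

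The other lysyl hydroxylases were not called between zones. Plod1 (Entrez gene 18822, mm9 chr4:147283862-147310876, reverse strand), which modifies lysines of the helix, ranged from 57.2 to 143 FPKM. Its highest value was in R3-cKO SFZ library 3, where the other 11 libraries had at most 99.1 FPKM. The log2 difference was -0.08, with a 95% interval of -0.55 to 0.39, and its sign changed in 3 of 20 alternative settings. Plod3 (Entrez gene 26433, mm9 chr5:137462889-137472518, forward strand), whose product also adds sugars to hydroxylysine, ranged from 60.0 to 87.7 FPKM. Its log2 difference was 0.13 (95% interval -0.09 to 0.35, limma adjusted p = 0.358), and the zones overlapped. It was 0.22 after quantile normalization (adjusted p = 0.0650) and 0.28 with median-of-ratios size factors (adjusted p = 0.0515).

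Within the lysyl hydroxylase family, Plod2 held a larger share of the transcripts in the DZ. Plod2 held 40.8, 39.9 and 39.9% of the summed FPKM of Plod1, Plod2 and Plod3 in R3-Cntl SFZ libraries, and 36.3, 41.4 and 42.0% in R3-cKO SFZ libraries. In the DZ it held 65.9, 60.7 and 66.6% in R3-Cntl and 59.3, 55.9 and 63.1% in R3-cKO libraries. The shares did not overlap, with means of 40.0 ± 2.03% in the SFZ and 61.9 ± 4.10% in the DZ (SD, n = 6 each). R3-cKO SFZ library 3, which was high in both Plod1 and Plod2, had a share of 42.0%, close to the other SFZ libraries. The summed level of the 3 genes averaged 256 FPKM in the SFZ and 409 FPKM in the DZ.

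P4ha2 and P4ha1 encode alternative catalytic subunits of prolyl 4-hydroxylase, and both were higher in the DZ. P4ha2 (Entrez gene 18452, mm9 chr11:53913597-53945167, forward strand) had SFZ levels in FPKM of 82.0, 66.2 and 71.3 for R3-Cntl and 59.4, 70.0 and 33.7 for R3-cKO mice. DZ levels were 180.3, 133 and 103 for R3-Cntl and 115, 94.4 and 107 for R3-cKO mice. Every DZ value was above every SFZ value, and R3-cKO SFZ library 3 was the lowest of all 12. The zone means were 63.8 ± 16.5 and 122 ± 31.3 FPKM (SD, n = 6 each). Its log2 difference was 0.94 (standard error 0.18, limma adjusted p = 0.00511, exact two-sided permutation p = 0.002165).

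P4ha1 (Entrez gene 18451, mm9 chr10:58786044-58836052, forward strand) had SFZ levels in FPKM of 132, 117 and 113 for R3-Cntl and 119.8, 109 and 120.2 for R3-cKO mice. In DZ cells the levels were 169, 176 and 178 for R3-Cntl and 129, 129 and 168 for R3-cKO mice. The zones overlapped, since R3-cKO DZ libraries 1 and 2 were below R3-Cntl SFZ library 1, and R3-Cntl DZ libraries were the highest. The zone means were 118 ± 7.82 and 158 ± 22.9 FPKM (SD, n = 6 each). The difference was 0.40 on the log2 scale, with a standard error of 0.09 (limma adjusted p = 0.00996, exact two-sided permutation p = 0.00649).

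Within the catalytic subunits, P4ha2 held 31.3 ± 6.18% of the summed FPKM of P4ha1, P4ha2 and P4ha3 in the SFZ and 41.3 ± 5.50% in the DZ (SD, n = 6 each). These shares overlapped between zones, at up to 36.2% in the SFZ and down to 35.3% in the DZ. P4ha1 held 59.3% and 54.1%. P4hb, the partner subunit that is also protein disulfide isomerase, averaged 601 FPKM in the SFZ and 714 FPKM in the DZ and differed by 0.25 on the log2 scale (limma adjusted p = 0.0997). With median-of-ratios size factors P4hb was called, at 0.40 (adjusted p = 0.0277), and with quantile normalization it was not (adjusted p = 0.0804).

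**Figure D2:**
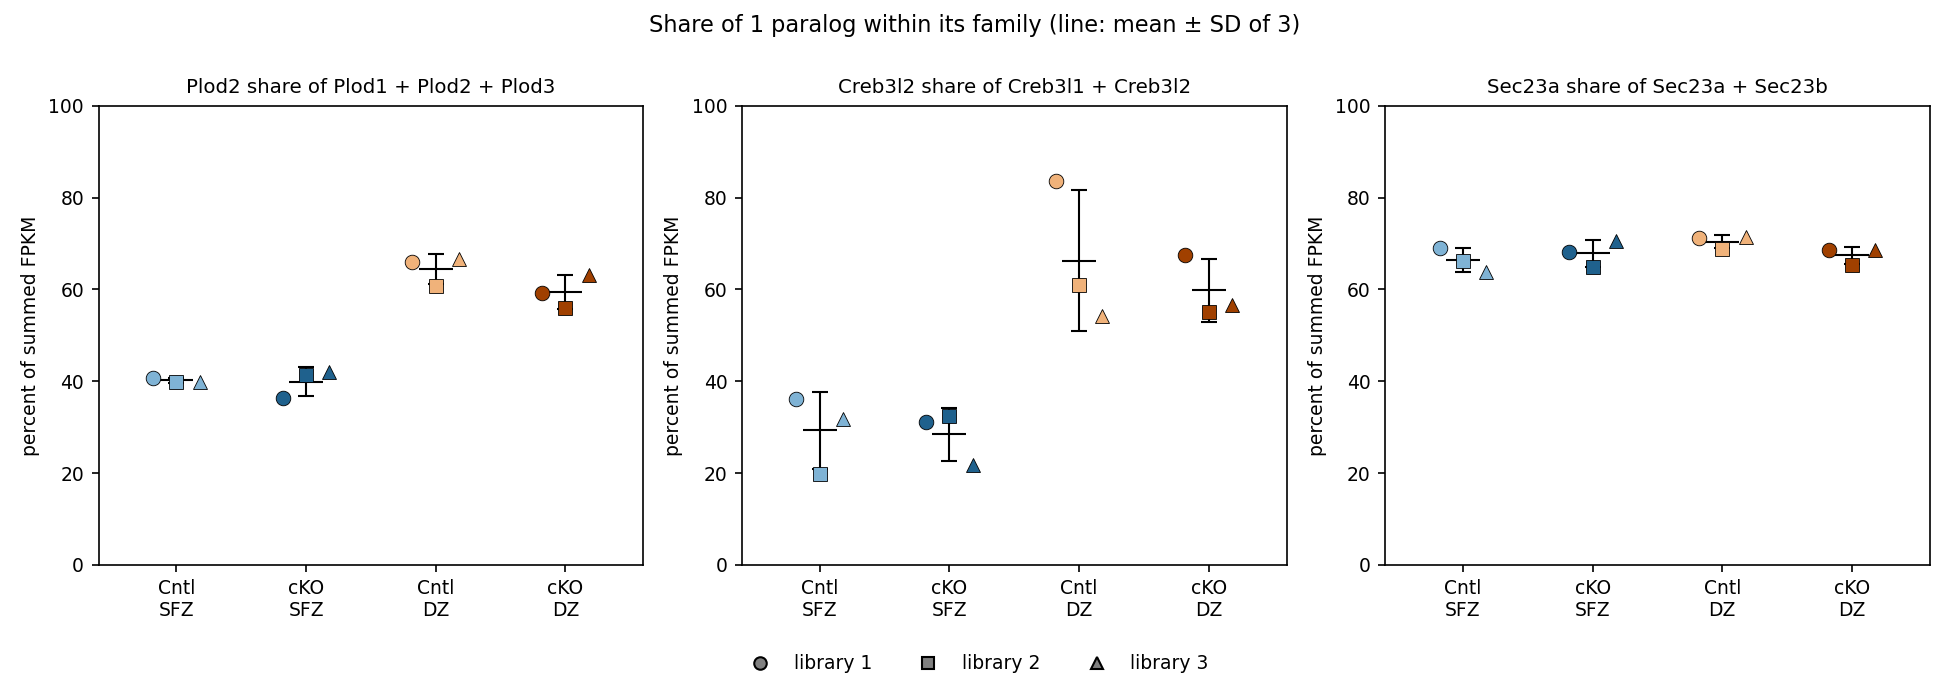
Percent of the summed FPKM of its family held by Plod2, Creb3l2 and Sec23a in each library, with the mean and SD of each group of 3. The shares of Plod2 and Creb3l2 are higher in all 6 DZ than in all 6 SFZ libraries, and the Sec23a share overlaps between zones.

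Serpinh1 (Entrez gene 12406, mm9 chr7:106493885-106501740, reverse strand), which encodes the collagen chaperone Hsp47, was not called between zones. SFZ levels in FPKM were 2319, 1754 and 1513 for R3-Cntl and 1803, 1589 and 1726 for R3-cKO mice. DZ levels were 2025, 1935 and 1779 for R3-Cntl and 1637, 1498 and 1790.4 for R3-cKO mice. The zones overlapped throughout, and the highest and second highest values were in R3-Cntl library 1 of each zone. The log2 difference was 0.00, with a 95% interval of -0.25 to 0.26. Its sign changed in 7 of 20 alternative settings, with values from -0.07 to 0.15.

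Of the coat and export genes, Sec23a was higher in the DZ and the others were not called. Sec23a (Entrez gene 20334, mm9 chr12:60059370-60113004, reverse strand) encodes an inner coat subunit of COPII vesicles. SFZ levels were 57.6, 57.4 and 51.7 FPKM for R3-Cntl and 52.6, 67.4 and 58.6 for R3-cKO mice, and DZ levels were 83.6, 80.6 and 83.0 for R3-Cntl and 73.1, 73.1 and 77.5 for R3-cKO mice. The zones did not overlap, and the R3-Cntl DZ libraries were the highest. The zone means were 57.6 ± 5.59 and 78.5 ± 4.69 FPKM (SD, n = 6 each). Its log2 difference was 0.44 (standard error 0.08, limma adjusted p = 0.00347, exact two-sided permutation p = 0.002165).

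Sec24d (Entrez gene 69608, mm9 chr3:122970414-123068553, forward strand), the inner coat subunit that selects cargo, was nearly even, from 70.1 to 87.9 FPKM over the 12 libraries. Its zone means were 77.7 ± 7.11 and 77.8 ± 6.38 FPKM (SD, n = 6 each), and its log2 difference was 0.00 (95% interval -0.17 to 0.18), with a sign that changed in 6 of 20 alternative settings. Mia3 (Entrez gene 338366), whose product TANGO1 links procollagen to the coat at exit sites, ranged from 27.6 to 36.6 FPKM. The log2 difference of Mia3 was -0.06 (95% interval -0.22 to 0.10), and it turned positive, at 0.06 and 0.09, with quantile normalization and with median-of-ratios size factors. Both ends of the Mia3 range, the lowest and the highest value, were in R3-Cntl DZ libraries. Family shares of the coat genes overlapped between zones. Sec23a held 67.1% of Sec23a and Sec23b in the SFZ and 68.9% in the DZ, and Sec24d held 58.5% and 58.6% of the 4 Sec24 genes.

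Creb3l2 (Entrez gene 208647, mm9 chr6:37277255-37392146, reverse strand) encodes BBF2H7, a membrane-bound factor that is cleaved on the way to the nucleus and is known to induce Sec23a in chondrocytes. SFZ levels in FPKM were 43.7, 26.99 and 31.5 for R3-Cntl and 37.3, 33.0 and 31.6 for R3-cKO mice. In DZ cells the levels were 93.5, 66.0 and 63.3 for R3-Cntl and 66.2, 53.4 and 61.0 for R3-cKO mice. All DZ values were above all SFZ values, and R3-Cntl library 1 was the highest of each zone. The zone means were 34.0 ± 5.78 and 67.2 ± 13.7 FPKM (SD, n = 6 each). The log2 difference was 0.96 (standard error 0.14, limma adjusted p = 0.00156, exact two-sided permutation p = 0.002165).

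Creb3l1, the closest relative of Creb3l2 and a factor known for collagen secretion in bone, went the other way. It averaged 86.3 ± 19.9 FPKM in the SFZ and 39.3 ± 12.5 FPKM in the DZ (SD, n = 6 each), with SFZ values of 67.6 to 113 FPKM all above DZ values of 18.3 to 53.4 FPKM. Every DZ value was below every SFZ value for 1142 of 11765 genes, or 9.71%. Creb3l1 fell by 1.16 on the log2 scale, with a standard error of 0.24 (limma adjusted p = 0.00773), and it was also called lower under both other scalings. Creb3l2 thus held 36.2, 19.9 and 31.8% of the summed FPKM of the pair in R3-Cntl SFZ and 31.2, 32.4 and 21.8% in R3-cKO SFZ libraries. The Creb3l2 share in the DZ was 83.7, 61.0 and 54.2% in R3-Cntl and 67.6, 55.0 and 56.7% in R3-cKO libraries. Creb3l1 was the more abundant of the pair in all 6 SFZ libraries and Creb3l2 in all 6 DZ libraries.

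**Figure D3:**
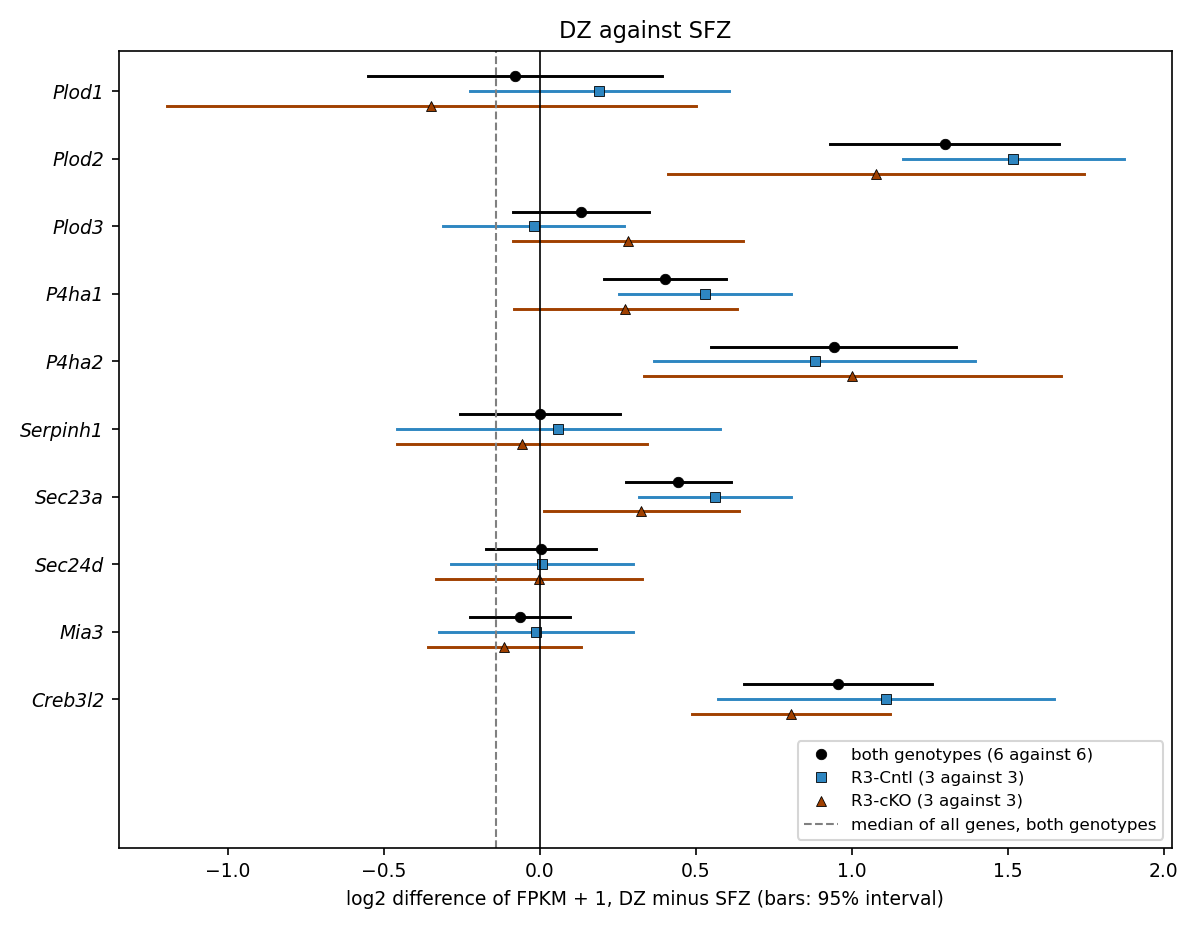
Log2 difference between DZ and SFZ for the 10 members over both genotypes and in each genotype, with 95% intervals from limma and the median of all genes (dashed). The intervals of Plod2, P4ha1, P4ha2, Sec23a and Creb3l2 over both genotypes lie above 0, and those of the other 5 members include 0.

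Values of 4 members, Plod2, P4ha2, Sec23a and Creb3l2, did not overlap between zones and were all higher in the DZ, as was the case for 193 of 11765 genes, or 1.64%. All 5 calls held in each of 20 alternative settings. Alternatives that were chosen after seeing the data left out libraries. Without R3-Cntl SFZ library 2 and R3-cKO SFZ library 3, the 5 members were called among 986 genes. In the 8 libraries with Y-linked transcripts, 4 were called among 1276 genes, and P4ha1 was not, at 0.42 (limma adjusted p = 0.0508, against 0.00551 to 0.0299 in the 20 other settings). Without R3-Cntl SFZ library 2 alone, 1624 genes were called in place of 2725.

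Within R3-Cntl mice, 3 DZ against 3 SFZ libraries, Plod2 was the 1 member called, and it rose 2.86-fold. The call rate was 140 of 11336 genes, or 1.24%, of which 17 were higher in the DZ. Plod2 had a log2 difference of 1.52 (limma adjusted p = 0.0338, standard error 0.15). Creb3l2 at 1.11, P4ha2 at 0.88, Sec23a at 0.56 and P4ha1 at 0.53 had limma adjusted p values of 0.0620, 0.0783, 0.0562 and 0.0657. All 3 DZ values lay above all 3 SFZ values for these 5 members, as for 5.96% of genes, and the exact permutation p was 0.1 for each, the smallest that 3 against 3 libraries allow. The median gene differed by -0.17.

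The Plod2 call in R3-Cntl mice was lost when any 1 of R3-Cntl SFZ libraries 2 and 3 and DZ libraries 1, 2 and 3 was left out, with 0 members called in each case. Without R3-Cntl SFZ library 1, 2 members were called. The 140 genes became 0 without SFZ library 2, DZ library 1 or DZ library 2, 3 without SFZ library 3, 4 without DZ library 3 and 505 without SFZ library 1. The call was also lost with no filter and with quantile normalization, and the limma adjusted p of Plod2 ranged from 0.0108 to 0.205 over 15 alternatives.

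Within R3-cKO mice the same 5 members were higher in each DZ than in each SFZ library, and 0 of 10 members were called by limma. At the adjusted threshold 2 of 11336 genes, or 0.0176%, were called. At an unadjusted p under 0.05, 4 members and 1602 genes passed. Relative to the median gene, at -0.09, the log2 differences were 1.17 for Plod2, 1.09 for P4ha2, 0.90 for Creb3l2, 0.42 for Sec23a and 0.37 for P4ha1. Their values did not overlap between zones, as for 4.24% of genes, with an exact permutation p of 0.1 each.

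In R3-cKO mice, SFZ and DZ libraries were most like those of their own number, with correlations across 11359 genes of 0.418, 0.781 and 0.653 after each group's mean was removed. Genes are not independent replicates in such a correlation. With the number as a block, Plod2 (1.08, standard error 0.12, limma adjusted p = 0.0355) and Creb3l2 (0.81, standard error 0.08, limma adjusted p = 0.0350) were called, and 352 genes or 3.11% in all. Over 15 alternatives the adjusted p ranged from 0.0355 to 0.482 for Plod2 and from 0.0350 to 0.363 for Creb3l2. Without the block, where 2 genes were called, the count was 0 without R3-cKO SFZ library 1, 1 without SFZ library 2, 5 without SFZ library 3, and 0 without any 1 of the DZ libraries.

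Whether the zone difference itself depended on genotype was tested as an interaction over all 12 libraries. By limma, 0 of 10 members and 0 of 11765 genes (0%) passed the adjusted threshold, and 0 members and 99 genes had an unadjusted p under 0.05. The lowest unadjusted p values among members were 0.135 for Plod3, at 0.30, and 0.136 for Sec23a, at -0.23 (limma). The 95% intervals of all 10 included 0, and that of Plod2 ran from -1.16 to 0.28.

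Genotypes were compared within each zone, since the study asks what loss of Runx3 changes in chondrocytes. In the SFZ, 0 of 10 members and 0 of 11537 genes (0%) were called by limma, and 0 members and 34 genes had an unadjusted p under 0.05. P4ha2 had the lowest unadjusted p among members, 0.132, at a log2 difference of -0.48 (95% interval -1.15 to 0.19). Values of all 10 members overlapped between genotypes. The median member differed by 0.02 and the median gene by -0.01.

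In the SFZ the widest departures were those of R3-cKO library 3. Plod1 and Plod2 were higher there than in any other SFZ library, and P4ha2 was lower. That library also had the highest summed superficial zone markers (903 FPKM) and fibrous connective tissue markers (1157 FPKM) of all 12 libraries, and their part in the result was not tested. Across genotypes, SFZ libraries of the same number correlated at 0.787, -0.094 and -0.415, and R3-Cntl libraries 2 and 3 were most like R3-cKO libraries 3 and 2 (0.449 and 0.688), so no ratios by number are given for the SFZ.

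In the DZ, 8 of 10 members were lower under the R3-cKO label and none was called. By limma 0 of 11091 genes (0%) passed the adjusted threshold, and 404 genes and 0 members had an unadjusted p under 0.05. The median member differed by -0.20 and the median gene by 0.05. The largest log2 differences were -0.36 for P4ha2, -0.31 for Plod2, -0.30 for P4ha1 and -0.28 for Creb3l2, and 95% intervals of all 10 included 0. Plod3 and Sec24d were higher, at 0.15 and 0.05, and Sec24d turned to -0.01 with median-of-ratios size factors. Other lists were also lower under the R3-cKO label in the DZ, with median log2 differences of -0.52 for 14 chondrocyte markers, -0.53 for 8 hypertrophic markers, -0.31 for 19 hypoxia targets, -0.88 for 3 osteoblast markers and -0.50 for 2 tested macrophage markers. The median of the dissociation response was higher, at 0.31. The 2 tested muscle markers went opposite ways, Acta1 at 1.43 and Tnnt3 at -0.52, with a median of 0.45. None of these genes was called by limma, and 2, 2, 0, 3, 0, 0 and 0 had an unadjusted p under 0.05. The summed chondrocyte markers, given below, were lower in the R3-cKO DZ library at each number, and all R3-cKO DZ macrophage sums were below all R3-Cntl DZ sums. The part of these lists in the result was not tested.

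P4ha1 and Sec23a were lower in each R3-cKO DZ than in each R3-Cntl DZ library, 2 of 10 members, as for 308 genes or 2.78%. The exact permutation p was 0.1 for each, the smallest the design allows. P4ha1 averaged 174 ± 5.09 FPKM over R3-Cntl and 142 ± 22.3 over R3-cKO DZ libraries (SD, n = 3 each), and Sec23a averaged 82.4 ± 1.61 and 74.6 ± 2.56 FPKM. For P4ha1, R3-cKO libraries 1 and 2 were lowest and R3-cKO library 3 was just below the R3-Cntl values.

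Across genotypes, DZ libraries were most like those of their own number, with correlations of 0.653, 0.781 and 0.687 over the same 11359 genes. With the number as a block, 3 of 10 members, Plod2, P4ha1 and Creb3l2, had an unadjusted p under 0.05, as did 1830 genes or 16.5%, and none of them was called after adjustment. The unadjusted p values from limma were 0.0183, 0.0265 and 0.0385, and the adjusted ones 0.239, 0.257 and 0.284. The R3-cKO to R3-Cntl ratios at numbers 1, 2 and 3 were 0.738, 0.806 and 0.885 for Plod2 and 0.765, 0.733 and 0.942 for P4ha1. They were 0.708, 0.809 and 0.963 for Creb3l2 and 1.08, 1.16 and 1.11 for Plod3.

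All 3 ratios were below 1 for Plod2, P4ha1, Creb3l2, Sec23a and Plod1, as for 1485 of 11091 genes or 13.4%, and all 3 were above 1 for Plod3, as for 2955 genes or 26.6%. The 4 Y-linked genes summed to no more than 0.06 FPKM in either zone of R3-cKO numbers 2 and 3. In the 8 other libraries they summed to between 12.1 and 52.35 FPKM, a wide spread whose cause was not tested. Sex and genotype therefore cannot be told apart at numbers 2 and 3.

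**Figure D4:**
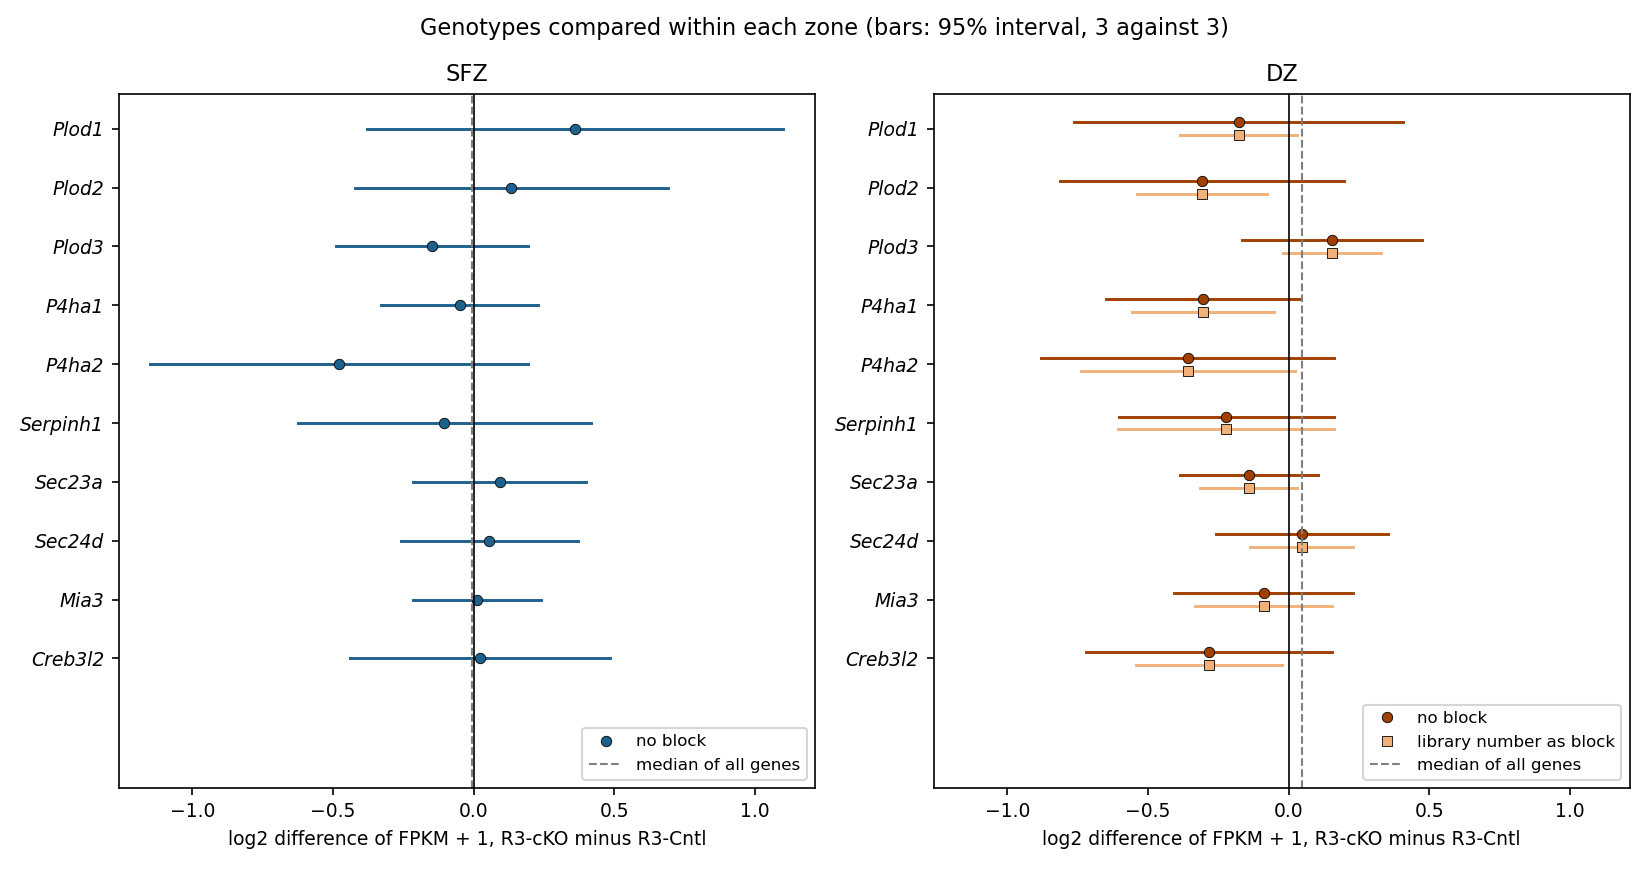
Log2 difference between R3-cKO and R3-Cntl libraries for the 10 members in the SFZ and in the DZ, with 95% intervals from limma and the median of all genes (dashed). Without a block all intervals include 0, with the library number as a block in the DZ those of Plod2, P4ha1 and Creb3l2 lie below 0, and 8 of the 10 DZ differences are below 0.

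Other genes of the same route were compared between zones from lists. Among 12 other genes of collagen hydroxylation and glycosylation, 3 rose in the DZ, 1 fell and 8 were not called, with a median log2 difference of 0.08. Colgalt2, a galactosyltransferase for hydroxylysine, rose by 1.67, and P3h2, a prolyl 3-hydroxylase, rose by 0.88 (limma adjusted p = 0.0339 and 0.0320). P3h1 rose by 0.45 (limma adjusted p = 0.00953), and its partner Crtap, at -0.24, was not called. P3h3 fell by 0.57 (limma adjusted p = 0.0393) and was not called under quantile normalization or median-of-ratios size factors.

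Among 20 genes of endoplasmic reticulum folding, 3 rose and none fell, with a median of 0.00 that turned to 0.07 and 0.15 under the other scalings. The 3 were Ero1l, an oxidase that supplies disulfide bonds (0.71), and the retrieval receptors Kdelr3 (0.60) and Kdelr2 (0.24), with limma adjusted p values of 0.0353, 0.00424 and 0.0466. Of 24 tested COPII and exit site genes out of 26, 5 rose and none fell, with a median of 0.13. They included the GTPase Sar1b, which starts coat assembly (0.43, limma adjusted p = 0.00424), Sec23b, the paralog of Sec23a (0.32, adjusted p = 0.0375), Sec24a (0.22, adjusted p = 0.0122) and Sec16b of the exit site (0.32, adjusted p = 0.0153). The count of COPII genes called higher was 10 with quantile normalization and 11 with median-of-ratios size factors, with list medians of 0.26 and 0.27. Sec24b, Sec24c and Sar1a were not called, at -0.25, 0.05 and 0.00. Mia2, the relative of Mia3, was listed at no more than 0.07 FPKM and was not tested.

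Of 13 tested factors of the secretory and unfolded protein responses out of 15, Ern1 (0.58) and Xbp1 (0.28) rose, Creb3l1 fell and 10 were not called. Ern1 is the kinase and nuclease that splices Xbp1 mRNA, and their limma adjusted p values were 0.00657 and 0.0164. Of 6 tested procollagen processing genes out of 8, 3 fell and none rose. The N-proteinases Adamts2 and Adamts3 fell by 1.97 and 0.91, and Pcolce, an enhancer of C-propeptide cleavage, fell by 1.23 (limma adjusted p = 0.00162, 0.0178 and 0.0353). Under quantile normalization Adamts2 alone was called, and with median-of-ratios size factors Adamts2 and Adamts3.

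**Figure D5:**
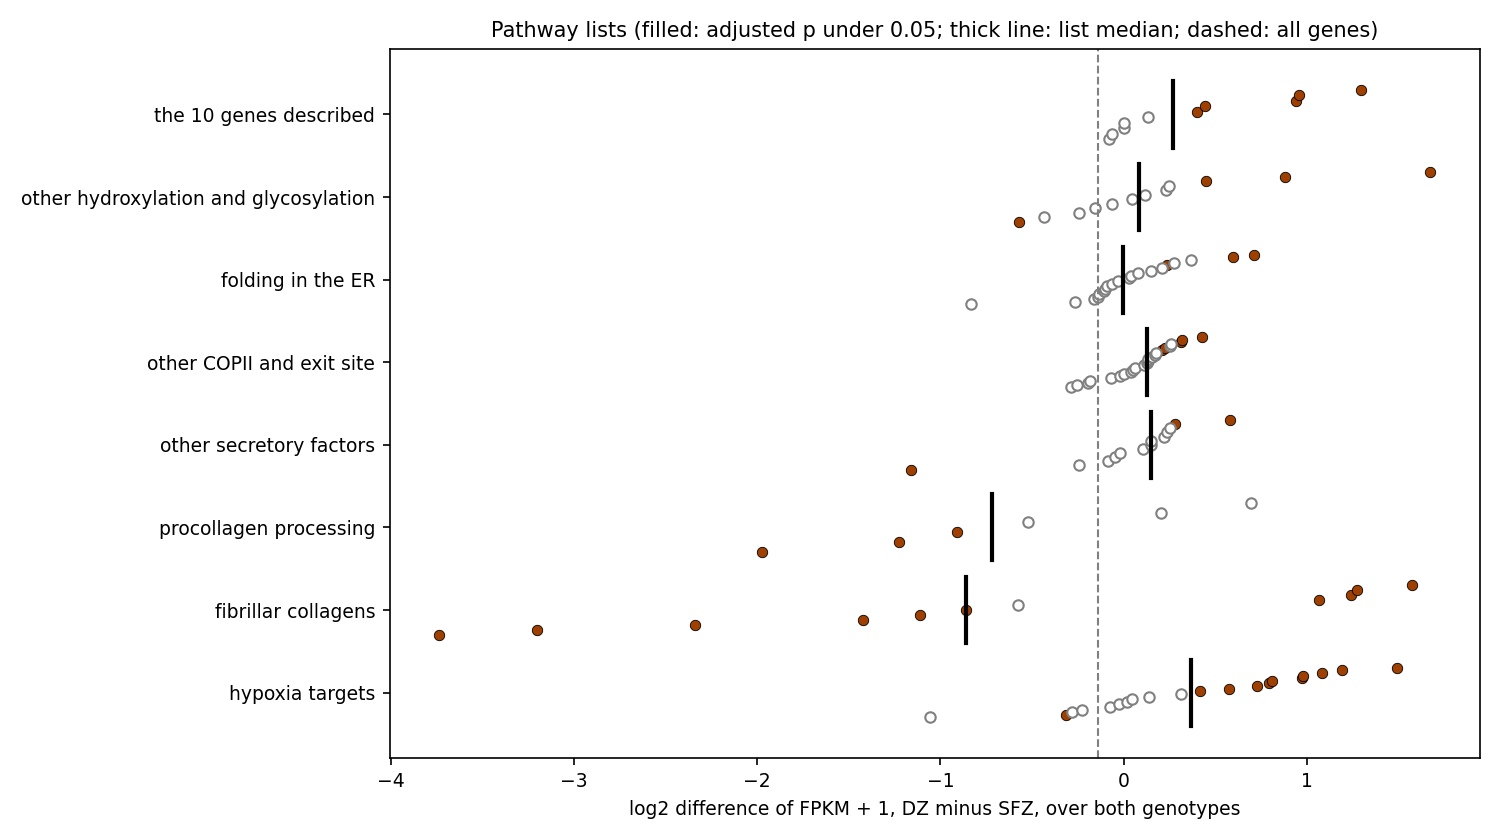
Log2 difference between DZ and SFZ over both genotypes for each tested gene of the members and of the other pathway lists, with called genes filled and a line at each list median. Median differences run from -0.86 for fibrillar collagens to 0.37 for hypoxia targets, beside -0.14 for all 11765 genes.

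The collagens that these enzymes modify differed in both directions. Of 11 fibrillar collagen genes, 4 were higher in the DZ, 6 were lower and 1 was not called, with a median of -0.86. After quantile normalization 3 were called higher and 5 lower, with a median of -0.54. Col2a1, the main chain of cartilage, averaged 5924 FPKM in the SFZ and 16540 FPKM in the DZ and rose by 1.57 (limma adjusted p = 0.00531), although with quantile normalization it was not called, at 0.77 (adjusted p = 0.159). Col1a1, Col1a2 and Col3a1, chains of fibrous tissue and bone, fell by 3.73, 3.20 and 2.34 (limma adjusted p = 0.00874, 0.00522 and 0.0157). The summed level of these 3 was 5655 ± 2755 FPKM in the SFZ and 846 ± 789.6 FPKM in the DZ (SD, n = 6 each).

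Among 20 hypoxia targets, a list that shares no gene with the members, 10 were higher in the DZ, 1 was lower and 9 were not called, with a median of 0.37. The 1 lower call was absent under both other scalings, where 10 stayed the count of higher calls. Bnip3, Pfkfb3 and Slc2a1, which act in mitophagy, glycolysis and glucose uptake, rose by 1.49, 1.19 and 1.08 (limma adjusted p = 0.00332, 0.00268 and 0.0121). The summed level was 1107, 840.4 and 1116 FPKM for R3-Cntl SFZ, 939, 1290.5 and 659 for R3-cKO SFZ, 2010.0, 2107 and 1346 for R3-Cntl DZ and 1568, 1484 and 1511 for R3-cKO DZ cells. All DZ sums were above all SFZ sums. Ldha was the most abundant, at 537 FPKM on average.

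Markers of cell types also moved with zone. Of 14 chondrocyte markers, 12 were higher in the DZ and none was lower, and Col2a1 was the most abundant at 11230 FPKM on average. Their summed level was 16133, 4915 and 9687 FPKM for R3-Cntl SFZ, 13807, 7914 and 5692 for R3-cKO SFZ, 37505, 23049 and 29426 for R3-Cntl DZ and 24636, 15955 and 29060.2 for R3-cKO DZ cells. R3-cKO DZ library 2 was below R3-Cntl SFZ library 1, so these sums overlapped. With quantile normalization 11 of the 14 were called higher.

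Of 10 fibrous connective tissue markers, 8 were lower in the DZ, and none was at 0 throughout. Under each other scaling 7 were called lower, and with median-of-ratios size factors 1 was called higher. Their sums were 551, 696 and 364 FPKM for R3-Cntl SFZ, 523, 291 and 1157 for R3-cKO SFZ, 482, 407 and 839 for R3-Cntl DZ and 342, 314 and 741 for R3-cKO DZ cells. Dcn, the most abundant at 257 FPKM on average, is also expressed by chondrocytes. The sums overlapped between zones, although most single markers were lower in the DZ.

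Of 9 tested macrophage markers out of 10, 8 were lower in the DZ, with 2 of them called under quantile normalization and 5 with median-of-ratios size factors. The sums were 60.3, 55.3 and 4.67 FPKM for R3-Cntl SFZ, 60.5, 8.58 and 30.4 for R3-cKO SFZ, 6.76, 4.82 and 12.1 for R3-Cntl DZ and 4.03, 3.37 and 3.09 for R3-cKO DZ cells. Cd68 was the most abundant, at 5.92 FPKM on average. SFZ libraries differed widely among themselves in these markers.

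Of 7 tested superficial zone markers out of 8, 2 were lower in the DZ. Library sums were 352, 565 and 366 FPKM for R3-Cntl SFZ, 361, 305 and 903 for R3-cKO SFZ, 70.2, 127 and 181 for R3-Cntl DZ and 142, 161 and 177 for R3-cKO DZ cells, with Abi3bp the most abundant at 149 FPKM on average. All SFZ sums were above all DZ sums, and 1 marker was called higher in the DZ under each other scaling. Prg4, the lubricin gene, differed by -2.36 in R3-Cntl mice (limma adjusted p = 0.0485) and by -0.27 in R3-cKO mice (limma adjusted p = 0.88). The part of these cell type markers and of the hypoxia targets in the zone differences of the members was not tested.

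Of 3 tested osteoblast markers out of 6, 2 were lower in the DZ under all 3 scalings, with a median of -2.203. Sums over the 6 were 70.3, 48.8 and 32.9 FPKM for R3-Cntl SFZ, 43.8, 21.9 and 24.0 for R3-cKO SFZ, 16.6, 23.6 and 22.4 for R3-Cntl DZ and 12.98, 9.47 and 10.1 for R3-cKO DZ cells, with Bglap2 the most abundant at 10.5 FPKM on average. Of 8 hypertrophic markers 1 was higher in the DZ, with a median of 0.72 and with Spp1 the most abundant at 405 FPKM on average. No gene was called among 3 tested muscle markers, 2 tested keratinocyte markers, 11 tested dissociation response genes and 4 Y-linked genes, where 0, 0, 3 and 0 had an unadjusted p under 0.05 in limma. Of 7 endothelial markers with values, 0 passed the filter, and Pecam1, the most abundant, averaged 0.352 FPKM. Endothelial sums ran from 0.59 to 6.30 FPKM in the SFZ and from 0.11 to 0.41 FPKM in the DZ. Dissociation response sums ran from 95.2 to 257 FPKM and overlapped between zones.

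Genes whose profile over the 12 libraries was most like that of a member were ranked among 11765 genes by the root mean square difference of centred log2 values. For Plod2 the closest were Fgfrl1 (0.318), Deptor (0.322) and Pfkfb3 (0.33), where the median gene was at 0.809. For P4ha2 they were Eno1 (0.21), Mif (0.214) and Pgk1 (0.22), against a median of 0.683. For Creb3l2 they were Gfpt1 (0.12), Pgm2 (0.128) and Ccdc88c (0.128), against 0.636. Ccdc88c averaged 0.413 FPKM in the SFZ and 1.74 FPKM in the DZ, where the added 1 narrows log2 differences. Eno1 averaged 681 FPKM in the SFZ and 1149 FPKM in the DZ, and Gfpt1 averaged 35.3 and 61.1 FPKM. Among the members themselves, the closest pairs were Sec24d and Mia3 (0.117) and P4ha1 and Sec23a (0.152). Sec24d and Mia3 varied least of the members, and genes that vary little lie close by this measure whatever their pattern.

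Promoters from RefSeq (GRCm38.p6), 250 bases before to 50 bases after the start, were found for 9 of 10 members, with Plod2 missing. Both strands were searched for TGTGGT or TGCGGT, letters of the RUNX motif, for ACGTG or GCGTG, the core of the hypoxia response element, and for TGACGT, a core of the cAMP response element to which factors of the Creb3 family are known to bind. The hypoxia core was in 8 of 9 members, all but Creb3l2, and in 43.8% of 32851 promoters. The TGACGT core was in 4 of 9, Sec23a, Sec24d, Mia3 and Creb3l2, and in 7.5% of promoters. The RUNX letters were in 3 of 9, Plod3, P4ha2 and Sec24d, and in 22.4% of promoters. TGACGTG holds both TGACGT and ACGTG, so these searches overlap in Sec23a, Sec24d and Mia3, and member promoters had a median GC content of 64.7%, against 52.7% for all.

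Stretches of 5 promoters are shown, those of P4ha1 and P4ha2 for the hydroxylases that rose with zone and those of Creb3l2, Sec24d and Sec23a for the export genes and their factor. Capitals mark every match on either strand, and each is written 5′ to 3′ on the strand of the gene. They lie at chr10:59323116-59323295 (forward strand), chr11:54100744-54100923 (forward), chr6:37442279-37442378 (reverse), chr3:123267376-123267495 (forward) and chr12:59011994-59012022 (reverse) of GRCm38.p6.
P4ha1: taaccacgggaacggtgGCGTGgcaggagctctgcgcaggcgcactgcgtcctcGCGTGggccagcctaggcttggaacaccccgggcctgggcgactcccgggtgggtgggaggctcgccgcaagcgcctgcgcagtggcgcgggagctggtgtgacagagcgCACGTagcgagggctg
P4ha2: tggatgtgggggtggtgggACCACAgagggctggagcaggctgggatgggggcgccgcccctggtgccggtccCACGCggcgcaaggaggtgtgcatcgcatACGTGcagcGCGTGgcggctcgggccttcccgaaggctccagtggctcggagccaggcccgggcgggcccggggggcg
Creb3l2: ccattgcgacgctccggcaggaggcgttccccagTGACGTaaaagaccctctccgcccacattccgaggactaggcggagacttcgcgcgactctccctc
Sec24d: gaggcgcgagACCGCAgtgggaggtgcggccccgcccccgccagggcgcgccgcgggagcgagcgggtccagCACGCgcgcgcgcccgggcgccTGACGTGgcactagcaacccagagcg
Sec23a: ctcctccccttTGACGTGgcagaggcggc

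P4ha1 and P4ha2, which rose in the DZ, had 3 and 4 hypoxia cores. Those of P4ha1 began 163, 126 and 16 bases before the start, and those of P4ha2 began 107, 78 and 69 bases before it and at base 11 after it, with RUNX letters 161 bases before it. Of the other members that rose, Sec23a had 2 and Creb3l2 had 0, and of those not called Plod3 had 4, Sec24d 3, Plod1 2 and Serpinh1 and Mia3 1 each. TGACGT began 196 bases before the start in Creb3l2, 26 before it in Sec24d, 86 before it in Mia3 and at base 7 after it in Sec23a. Sec23a and Creb3l2 thus shared this core with Sec24d and Mia3, of which the former pair rose in the DZ and the latter pair was not called.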

How the data were processed

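The authors deposited values for 17536 genes in 12 libraries, from 100-bp paired-end reads mapped to mm9, with Bowtie 0.12.2 among their tools. The deposited unit, inferred from the values, is FPKM scaled between libraries by TMM. All columns were mapped, and 28 genes without a symbol stayed in the fits. The 10 members and all gene lists were chosen with earlier results of these data known. Values were analysed as log2(FPKM + 1) in R 4.3.3 with limma 3.58.1 (empirical Bayes with a mean-variance trend), keeping genes that reached 1 FPKM in 3 or more libraries of the comparison, with Benjamini-Hochberg adjustment over all genes tested. The method was tested on simulated data. Single members were compared by exact two-sided permutation tests over free arrangements of the libraries. Lists covered collagen hydroxylation, folding, COPII, secretory factors, procollagen processing, fibrillar collagens, hypoxia targets, cell types, dissociation and Y-linked genes. From each pathway list, up to 3 called genes with the largest change were named, together with known partners of the members. P3h1, Crtap, Sec24a, Sec24b, Sec24c, Sar1a and Mia2 are such partners. The named genes also include the 3 genes most like Plod2, P4ha2 and Creb3l2, the members that varied most.

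Alternatives changed the filter (none, or a mean of 10 FPKM or more), the pseudocount (0.1 or 5) and the scaling (quantile, or size factors by median of ratios). Others used the library number as a block, no mean-variance trend, 1 model for all 12 libraries, or each library left out in turn. For zones over both genotypes, the block was the library number within each genotype. Block values of single members were read only where libraries of the same number correlated best with each other, and block counts for the other comparisons are listed as settings. Python 3.11.15, pandas 2.3.3, NumPy 2.4.6, SciPy 1.17.1 and matplotlib 3.10.9 were used for the other values. Depth was read from the steps on which low values of single-transcript genes clustered in part. It corresponds to 27500000 to 29800000 fragments per library after the authors' scaling.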

Additional observations from a re-analysis of the deposited data

How the results depend on the processing

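The 5 members called between zones over both genotypes kept their direction and their call in 20 settings, among them each library left out in turn, with log2 differences of 1.22 to 1.45 for Plod2, 0.36 to 0.55 for P4ha1, 0.80 to 1.09 for P4ha2, 0.41 to 0.59 for Sec23a and 0.86 to 1.11 for Creb3l2. The count over all genes, 2725, became 1162 at a mean of at least 10 FPKM, where fewer genes were tested, and 1624 to 2899 with 1 library left out. In the settings added after seeing the data, with fewer libraries, it was 986 and 1276. It was 3965 with the library number within each genotype as a block, although libraries of the same number did not correlate best with each other in every group.

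In R3-Cntl mice the zone count of members, 1, became 0 with no filter and with quantile normalization, 3 with the block, 4 with all 12 libraries in 1 model and 0 to 2 with 1 library left out. The count over all genes, 140, became 0 with no filter, 8 at a mean of at least 10 FPKM, 88 and 29 with pseudocounts of 0.1 and 5, 4 with quantile normalization, 18 with median-of-ratios size factors, 831 with the block, although R3-Cntl SFZ libraries 2 and 3 were most like DZ libraries 3 and 2, 798 with all 12 libraries and 0 to 505 with 1 left out. In R3-cKO mice the member count, 0, became 2 with the block. The count over all genes, 2, became 5 with no filter, 0 at a mean of at least 10 FPKM, 1 with each pseudocount, 352 with the block, 165 with all 12 libraries and 0 to 5 with 1 left out. The causes of these shifts were not tested.

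Between genotypes and for the interaction, 0 members were called by limma in every setting run, and 1 gene was called in the DZ with no filter. Plod1, Serpinh1, Sec24d and Mia3, which were not called between zones, changed sign in 3, 7, 6 and 2 of 20 settings, and Plod3 in 0. At the depth implied by the steps, counting error was at most 3.7% per kilobase for any member value. Other technical noise was not measured, and the standard errors were taken from the spread between libraries.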
